A study of Mus musculus with 6 samples.

Results

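Myoglobin and the genes of the hypoxia pathway were followed in mouse gastrocnemius, a calf muscle, from just before birth to adulthood. The 10 genes were the HIF alpha subunits Hif1a, Epas1 and Hif3a, their partner Arnt, the degradation genes Vhl, Egln1 and Egln3, the coactivator modulator Cited2, the angiogenic target Vegfa and the oxygen-binding globin Mb. They were taken by symbol from a table of 23367 gene entries, all 10 were found, and all 10 passed the filter on low counts. They had been chosen by their levels in these same libraries, with the step around birth in view, so that step is described here without a test. Tests of the later spans use the same libraries, so they describe these genes and are no independent support for the choice.

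Poly(A) RNA came from wild type FVB mice, untreated as far as the labels say. The stages were embryonic day 18.5 (E18.5, male and female mice pooled), postnatal day 2 (PN2, several male mice pooled), PN14 (2 male mice sequenced singly), PN28 (1 male mouse) and adult at 22 weeks (1 male mouse). Only PN14 had replicates, so every test rests on the spread between those 2 mice and assumes that the other stages vary as they do. Each library was run on a lane of its own, and lane and stage cannot be told apart. The counts on genes lay between 125402932 and 157868359 per library. The 20 most abundant genes took from 16.0 to 16.7% of the counts at E18.5 and PN2 and from 28 to 36.9% later. Markers of muscle fibres were abundant in every library: the summed FPKM (fragments scaled to gene length and library) of the fast fibre genes, such as Myh4 and Tnnt3, was 24498 at E18.5 and 124086 in adult muscle.

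In normoxic cells the alpha subunits of the hypoxia inducible factors (HIF) are made and destroyed continuously. EGLN enzymes, the prolyl hydroxylases, use oxygen to hydroxylate a proline of the subunit, and the VHL protein then binds it and hands it to a ubiquitin ligase. When oxygen is short the subunits persist, pair with ARNT and bind a short DNA core in genes for glycolysis, angiogenesis and the hydroxylases themselves. Because this control acts on protein, the RNA levels below give the supply of each component and not the activity of the pathway. Myoglobin stores oxygen in muscle fibres and eases its diffusion, and is abundant in oxidative fibres and in the heart.

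The hydroxylated proline lies in a short LxxLAP motif, and the coding sequence around it shows how the 3 alpha subunits differ. The 30 bases that end 2 codons past the proline are printed in lower case with the proline codon in capitals, from GENCODE M1 coding sequences.
Hif1a codon 402, chr12:75040670-75040699 (mm9, + strand): gatgctctcactctgctggctCCAgctgcc
Hif1a codon 577, chr12:75042957-75042986 (mm9, + strand): ttagatttggagatgctggctCCCtatatc
Epas1 codon 405, chr17:87223904-87223933 (mm9, + strand): gaggaactggcccagttggccCCCacccca
Epas1 codon 530, chr17:87226847-87226876 (mm9, + strand): ctggatttggagaccttggcaCCCtacatc
Hif3a codon 489, chr7:17626548-17626577 (mm9, - strand): ctggacttggagatgctggccCCCtacatc
The motif was found at 2 places in Hif1a (836 codons) and in Epas1 (874 codons) and at 1 place in Hif3a (664 codons). The stretch of Hif3a shared 25 of 30 bases with the second site of Hif1a and 25 of 30 with the second site of Epas1, against 12 and 16 of 30 with their first sites.

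Hif3a encodes the third alpha subunit, known for short isoforms that dampen HIF activity. The table sums all its isoforms. It lies on chromosome 7 (mm9, 17616856 to 17647776, - strand). Its level was 25.08 FPKM at E18.5, 3.36 at PN2, 0.20 for PN14 replicate 1, 0.24 for replicate 2, 0.25 at PN28 and 0.15 in adult muscle. The counts behind these levels were 27253, 3623, 172, 245, 255 and 144, so the late libraries still held well over the floor of 3 counts. Hif3a was thus the fourth highest of the 10 genes before birth and the lowest in each later library. From PN2 to PN14 it fell by 3.29 on the log2 scale (SE 0.165, edgeR quasi-likelihood test, Benjamini-Hochberg adjusted p = 0.00223), a difference of 9.80-fold after TMM scaling. Its PN2 level was in turn 7.42-fold under that at E18.5. Among 13189 genes with at least 1 CPM (counts scaled to library size) at E18.5 or PN2, 99 were at least 2-fold lower at both steps, and 4 fell at least as far as Hif3a at both: Hif3a, Lect1, Krt1 and Calm4. Lect1 encodes a cartilage protein and Krt1 a keratin of the epidermis. The genes were listed after their values were seen, and no test applies.

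Markers of some other cells were also lower after E18.5. The summed FPKM of 9 erythroid markers was 8937 at E18.5, 1567 at PN2 and from 393 to 2211 later, and 2 of the 9 were at 0 in some library. From PN2 to PN14, when Hif3a fell, none of the 9 was called and their median log2 difference was 0.60. The sum of 10 bone and cartilage markers was 125 at E18.5, 69.6 at PN2 and from 12.5 to 18 later. From PN2 to PN14, where 11.2% of all genes fell, 9 of these 10 markers fell while Comp, which tendon also makes, rose. Their part in the fall of Hif3a was not tested. In whole muscle, fewer cells of a type and less RNA per cell cannot be told apart.

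Hif1a, the ubiquitous alpha subunit, and Epas1, which encodes HIF-2 alpha and is prominent in endothelium, exchanged places. Hif1a (chromosome 12, mm9, 75002362 to 75048517, + strand) had 21.09 FPKM at E18.5, 18.87 at PN2, 6.57 and 9.54 at PN14, 6.40 at PN28 and 4.89 in adult muscle. Epas1 (chromosome 17, mm9, 87153247 to 87232750, + strand) had 9.35, 12.69, 31.34 and 37.70, 26.55 and 22.97 FPKM in the same order. Hif1a was the higher of the pair at E18.5 and PN2, and Epas1 in all 4 later libraries. The ratio of Epas1 to Hif1a within a library, which no scaling between libraries can alter, was 0.443 at E18.5, 0.672 at PN2, 4.77 and 3.95 at PN14, 4.15 at PN28 and 4.70 in adult muscle.

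From PN2 to PN14 Epas1 rose by 2.10 on the log2 scale (SE 0.233, edgeR adjusted p = 0.0053), or 4.28-fold, and the PN14 mice differed 1.01-fold. Hif1a had a log2 difference of -0.59 (SE 0.193, edgeR adjusted p = 0.0647) and did not pass. From PN2 to the adult Hif1a differed by -0.92 (SE 0.229, edgeR adjusted p = 0.02), just under the 2-fold limit. A lincRNA on the opposite strand, Gm15283, shares 330 of the 5896 exon bases of Hif1a, and reads there cannot be assigned where strand is not counted. Endothelial markers partly moved with Epas1: 5 of 12 rose from PN2 to PN14, where 11.8% of all genes rose, and none fell. At library size alone 0 of them were called. Their summed FPKM was 285 at E18.5, 284 at PN2, 268 and 415 at PN14, 194 at PN28 and 108 in adult muscle, and none of the 12 was at 0 in any library. The ratio of Epas1 to that sum was 0.0328, 0.0447, 0.117 and 0.0909, 0.137 and 0.213, so Epas1 was higher against the endothelial sum in every later library than at E18.5 or PN2.

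**Figure D1:**
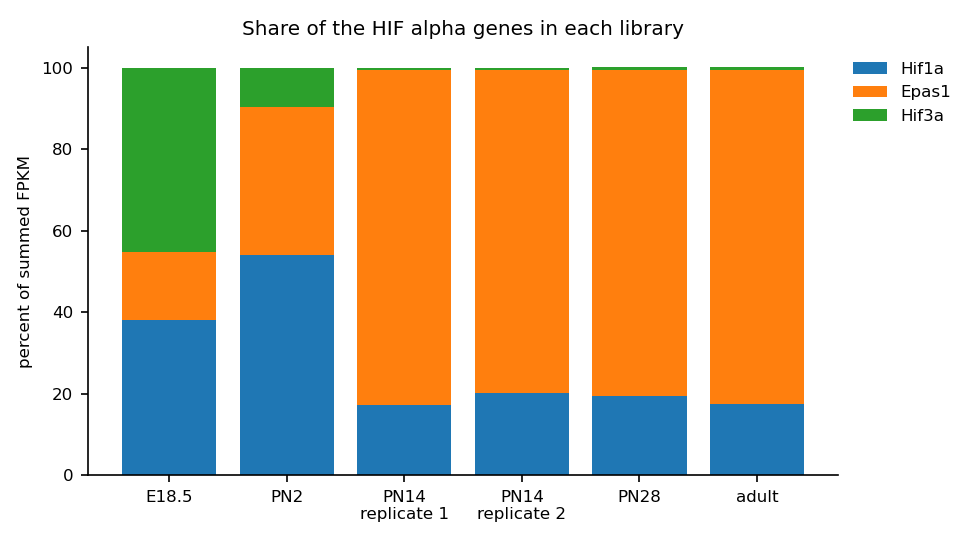
Share of Hif1a, Epas1 and Hif3a in their summed FPKM (vertical axis, percent) in each of the 6 libraries (horizontal axis). Hif3a made up 45.2% at E18.5 and 9.62% at PN2, and Epas1 between 79.4 and 82.2% from PN14 on.

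Summed over the 3 alpha genes, the level was 55.5 FPKM at E18.5, 34.9 at PN2, 38.1 and 47.5 at PN14, 33.2 at PN28 and 28 in adult muscle. FPKM is not TMM scaled, and the direction of the sum from PN2 to the adult depends on the scaling. In TMM-scaled CPM, Hif1a, Epas1 and Hif3a had 61.3, 46.4 and 15.9 at PN2 and 32.4, 171 and 1.41 in adult muscle. The makeup of the sum moved further than the sum. The stacked bars of the alpha genes show Hif1a with 38.0% of the sum at E18.5, 54.0% at PN2 and between 17.2 and 20.1% later. Hif3a held between 0.505 and 0.753% of it from PN14 on. The 4 libraries from PN14 to adult were close to each other in all 3 shares.

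Arnt, a beta subunit with which HIF alpha pairs to bind DNA, differed by at most 0.41 on the log2 scale over the 4 tested spans (chromosome 3, mm9, 95238310 to 95301162, + strand). Its level was 17.92 FPKM at E18.5, 18.37 at PN2, 11.99 and 13.34 at PN14, 11.41 at PN28 and 12.01 in adult muscle. No interval passed the test: from PN2 to PN14 the log2 difference was 0.12 (SE 0.179, edgeR adjusted p = 0.632), and with library size alone it was -0.54. The sign turned with the median of all genes, which library size alone puts at -0.66 from PN2 to PN14. From PN2 to the adult it puts that median at -1.07. What moved these medians was not tested. TMM puts these medians near 0, and the differences below are on the TMM scale. Cited2, which competes with HIF-1 alpha for the coactivators p300 and CBP, had 19.55 FPKM at E18.5, 20.62 at PN2, 13.01 and 26.36 at PN14, 28.46 at PN28 and 16.29 in adult muscle (chromosome 10, mm9, 17443034 to 17445479, + strand). The PN14 mice were 1.69-fold apart in Cited2 on the TMM scale, the second widest gap of the 10 genes after Mb. Its largest difference between neighbouring stages was 0.80 from PN14 to PN28 (SE 0.31, edgeR adjusted p = 0.588). Without PN14 replicate 2 that difference was 1.21, and without replicate 1 it was 0.47.

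**Figure D2:**
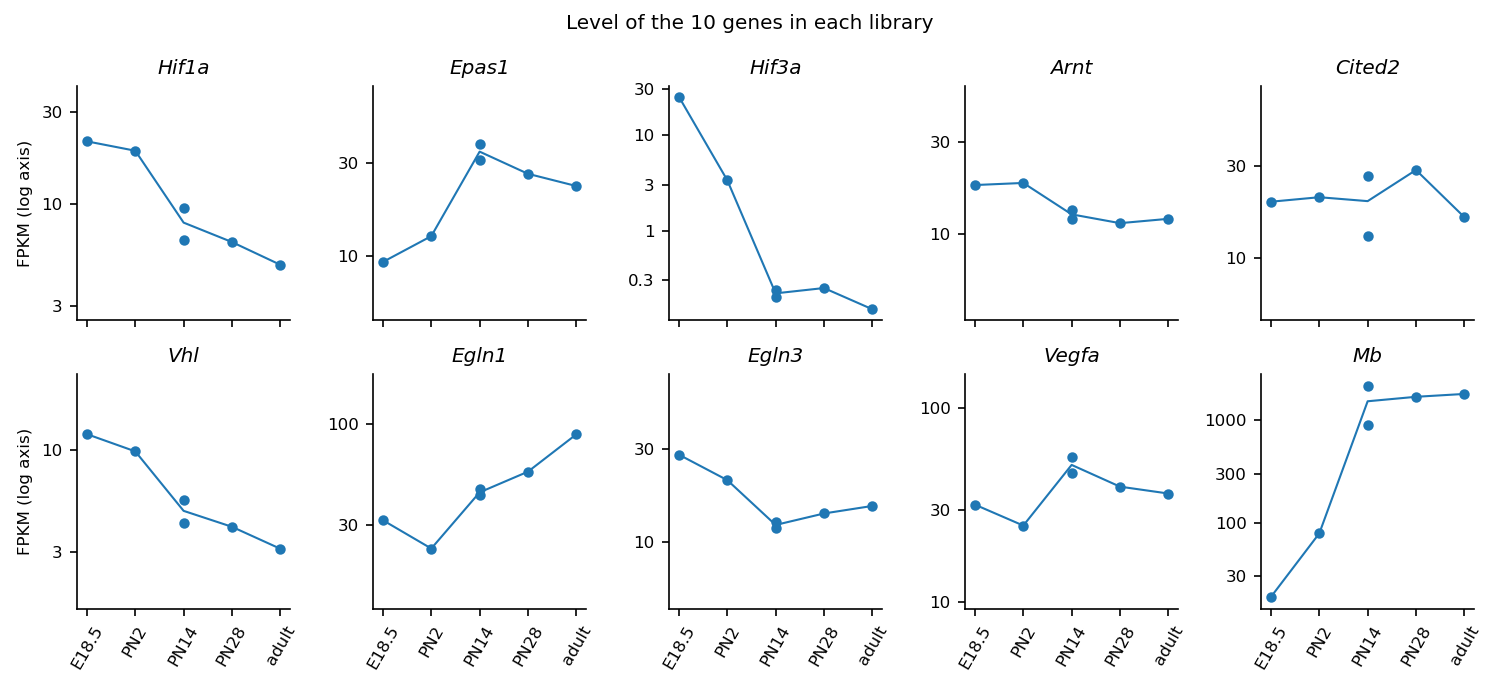
FPKM (vertical axes, log scale, a separate range in each panel) of the 10 genes in every library at the 5 stages (horizontal axes). Each point is a library, and lines join the stages through the mean of the 2 PN14 mice. Mb climbs from 18.88 to 1811.62 and Hif3a drops from 25.08 to 0.15 between E18.5 and adult.

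The degradation genes parted. Vhl, the substrate receptor of the ligase, had 12.04 FPKM at E18.5, 9.82 at PN2, 4.21 and 5.50 at PN14, 4.02 at PN28 and 3.10 in adult muscle (chromosome 6, mm9, 113573953 to 113581627, + strand). Egln1, which encodes PHD2, the main hydroxylase of HIF-1 alpha in normoxia, had 31.84, 22.78, 45.87 and 42.77, 56.61 and 88.06 FPKM in the same order (chromosome 8, mm9, 127432496 to 127473154, - strand). Egln3, which encodes PHD3, had 28.20, 20.87, 11.81 and 12.74, 14.06 and 15.37 (chromosome 12, mm9, 55279968 to 55304847, - strand). Egln1 and Egln3 were near each other at E18.5 and PN2, and Egln1 was higher in all later libraries: their ratio was 1.13, 1.09, 3.88 and 3.36, 4.03 and 5.73. The ratio of Egln1 to Vhl was 2.64 at E18.5, 2.32 at PN2, 10.9 and 7.78 at PN14, 14.1 at PN28 and 28.4 in adult muscle.

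Egln1 rose by 1.63 on the log2 scale from PN2 to PN14 (SE 0.286, edgeR adjusted p = 0.0127), a 3.09-fold difference against 1.28-fold between the PN14 mice. With library size alone the rise was 0.96 and fell short of the 2-fold limit. Over PN2 to adult Egln1 rose by 2.98 (SE 0.329, edgeR adjusted p = 0.00233), and it was the gene of the 10 with the second largest rise. Vhl differed by -0.37 from PN2 to PN14 (SE 0.179, edgeR adjusted p = 0.162) and by -0.64 from PN2 to the adult (SE 0.211, edgeR adjusted p = 0.0481, under the 2-fold limit), and with library size alone these were -1.02 and -1.66, both called. Egln3 differed by -0.11 from PN2 to PN14 (SE 0.176, edgeR adjusted p = 0.671) and by 0.58 from PN2 to the adult (SE 0.205, edgeR adjusted p = 0.0579), the latter at -0.44 with library size alone. Egln2, the hydroxylase gene outside the 10, made up between 36.9 and 47.8% of the summed FPKM of Egln1, Egln2 and Egln3 in every library, while Egln3 went from 29.6% at E18.5 to 9.38% in adult muscle and Egln1 from 33.4 to 53.7%.

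**Figure D3:**
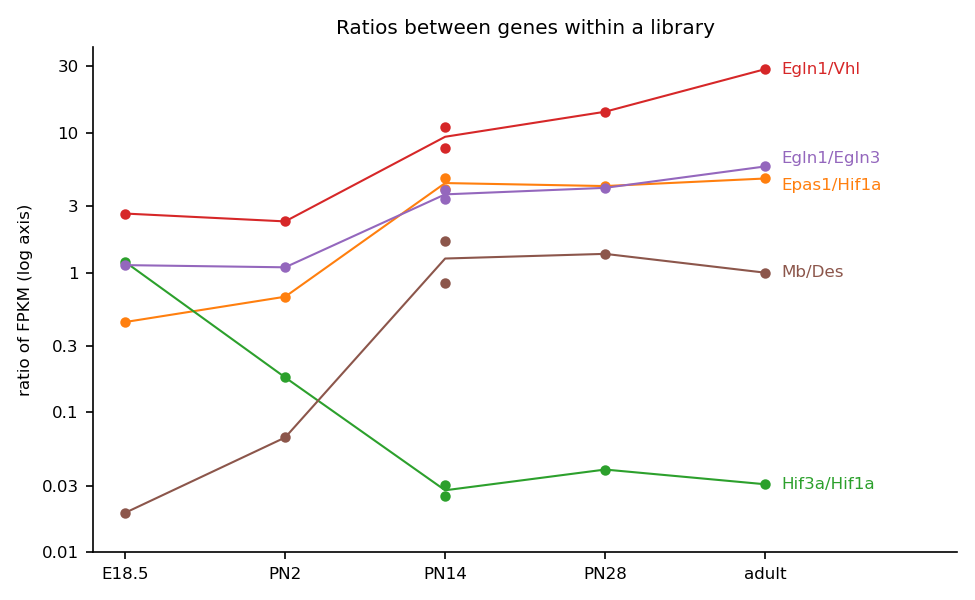
Ratio of FPKM between pairs of genes (vertical axis, log scale) at the 5 stages (horizontal axis), with each library as a point and lines through the mean of the PN14 mice. Egln1/Vhl climbs from 2.32 at PN2 to 28.4 in adult muscle, while Hif3a/Hif1a drops from 1.19 at E18.5 to between 0.0252 and 0.0391 from PN14 on.

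Vegfa, the main angiogenic ligand and a classical HIF target, had 31.82 FPKM at E18.5, 24.84 at PN2, 46.17 and 55.74 at PN14, 39.39 at PN28 and 36.31 in adult muscle (chromosome 17, mm9, 46153942 to 46169326, - strand). The PN2 level was the lowest of the 6 and the PN14 pair the highest. From PN2 to PN14 it rose by 1.68 on the log2 scale (SE 0.225, edgeR adjusted p = 0.00704), or 3.21-fold, with a log2 difference of 0.01 between the PN14 mice. Against Kdr, the main signalling receptor, the ratio of Vegfa was 1.43 at E18.5, 1.20 at PN2, 2.57 and 2.15 at PN14, 2.99 at PN28 and 4.43 in adult muscle. Against Flt1, the decoy receptor, it stayed between 5.15 and 8.42.

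HIF binds DNA at the core ACGTG or GCGTG, and the windows of Hif3a and Egln1, which had called changes and held a core, are printed with the core in capitals and 30 bases each, from RefSeq promoters (250 bases before to 50 after a start site). A core in capitals as CACGC reads GCGTG on the opposite strand. The coordinates are exact matches of these bases to mm9.
Hif3a, chr7:17647989-17648018 (- strand), opposite core: ctggagggaaatCACGCccggcgggctccg
Hif3a, chr7:17647945-17647974 (- strand): tctggggcagggGCGTGgctgggggtgtgc
Egln1, chr8:127473263-127473292 (- strand): gcccggcccgccGCGTGcgcgcggcccccg
Egln1, chr8:127473205-127473234 (- strand): gggccgtggtgtACGTGcagcgcgcgcgga
Vegfa has 2 windows in the table: that of its upstream start held 0 cores, and 2 cores lay in the window of a start inside the gene, which is not printed. Of the 10 genes 9 matched the promoter table, with Epas1 not in it, and 7 of the 9 held a core on either strand in at least 1 window, while the windows of Mb and Vhl held none. A core stands in 43.8% of all 32851 windows and in at least 1 window of 46.7% of 27025 genes, so a match is common. Among the other HIF target genes listed below, 35 of 41 matched genes held one. These are letters in a window and not sites shown to be bound.

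Mb reached the highest level of the 10 genes (chromosome 15, mm9, 76845919 to 76881100, - strand). Its level was 18.88 FPKM at E18.5, 78.78 at PN2, 2162.76 for PN14 replicate 1, 910.08 for replicate 2, 1698.74 at PN28 and 1811.62 in adult muscle. By FPKM it ranked 3661 among all genes at E18.5, 860 at PN2, 21 and 64 at PN14, 26 at PN28 and 24 in adult muscle. The groups before and after PN14 were far apart, yet the PN14 mice were themselves 2.86-fold apart, when 2.74% of 12933 genes differed at least 2-fold between them. From PN2 to PN14 Mb rose by 5.01 on the log2 scale (SE 0.915, edgeR adjusted p = 0.0138), or 32.2-fold. The rise was 4.06 without PN14 replicate 1 and 5.57 without replicate 2, and from PN14 to PN28 the difference was 1.27 and -0.26 in turn. Apol6 on the opposite strand shares 64 of the 1252 exon bases of Mb.

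Relative to other muscle fibre genes of the same library, the course of Mb depended on the gene. The ratio of Mb to Des, which encodes desmin, was 0.0192 at E18.5, 0.0663 at PN2, 1.68 and 0.839 at PN14, 1.36 at PN28 and 0.998 in adult muscle. Its ratio to Acta1, skeletal actin, was 0.00158, 0.00549, 0.0574 and 0.0296, 0.0467 and 0.0628, and its ratio to Ckm, muscle creatine kinase, was 0.0042, 0.0188, 0.115 and 0.0651, 0.0782 and 0.094. Every library from PN14 on was above E18.5 and PN2 in all 3 ratios. Against genes of the fast fibres the order was another: the ratio of Mb to Pvalb, the calcium buffer parvalbumin, was 0.265, 0.841, 0.104 and 0.0642, 0.0934 and 0.127, and that to Myh4, the myosin of the fastest fibres, was 0.43, 0.967, 0.301 and 0.134, 0.179 and 0.15. Both were lower from PN14 on than at E18.5 or PN2. The ratio to Myh1, another fast myosin, ran from 0.661 to 3.54 with no such split. The summed FPKM of 10 fast fibre markers was 24498 at E18.5, 28199 at PN2 and from 104097 to 137061 later. That of 8 slow fibre markers was 3078, 2960, 4535 and 3639, 1687 and 1471, with PN14 replicate 1 the highest in the slow sum and in Mb. The part of fibre makeup in the Mb difference was not tested.

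**Figure D4:**
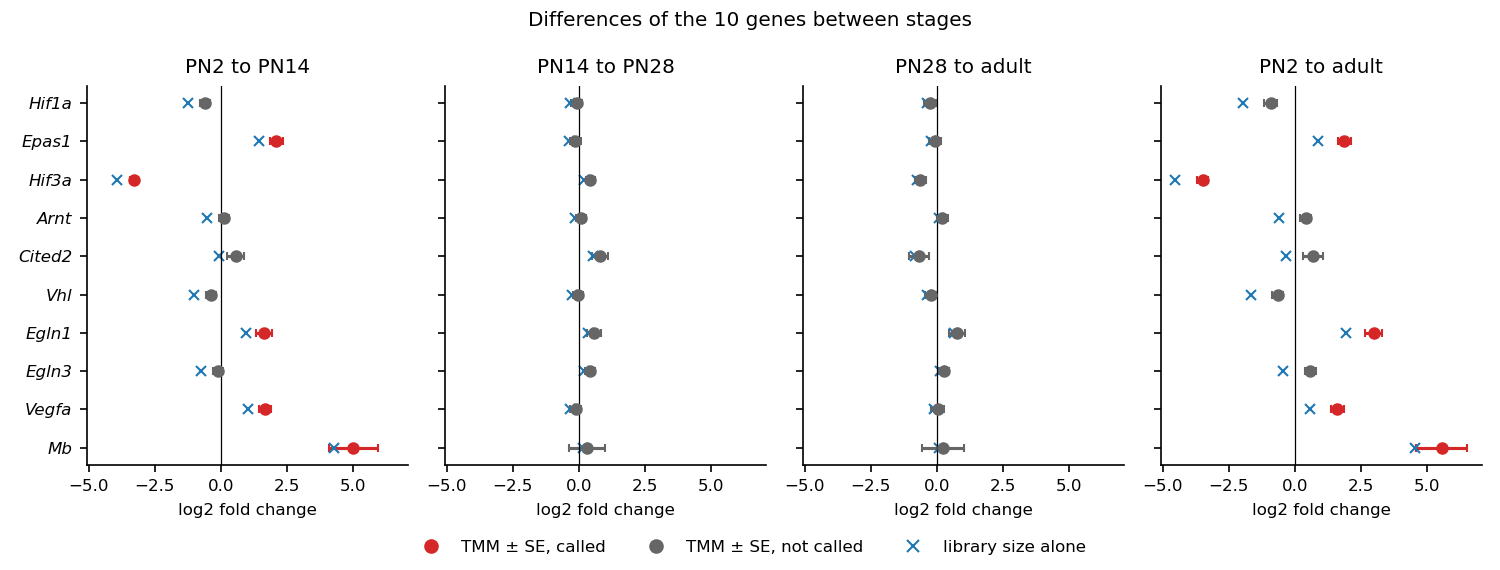
Log2 fold change (horizontal axes, later minus earlier stage) of the 10 genes (vertical axis) over 4 spans. Circles are TMM values with SE from edgeR's quasi-likelihood fit, red where called, and blue crosses are values with library size alone. The red circles are the same 5 genes in the first and last panels, and none is red in the middle panels.

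Counted together, 4 of the 10 genes rose from PN2 to PN14 (Epas1, Egln1, Vegfa and Mb) and 1 fell (Hif3a), where a call needs an adjusted p under 0.05 and at least a 2-fold change. Of all 16882 genes tested, 23.0% were called over this span, with 11.8% rising and 11.2% falling. The 10 genes were chosen by their levels in these libraries, so nothing is read from their count beside that share. With library size alone, 3 of the 10 rose (Epas1, Vegfa and Mb) and 3 fell (Hif1a, Hif3a and Vhl). That scaling put the median of all genes at -0.66 over this span, and its share of all genes called is not given. The same 5 genes were at least 2-fold apart in the same direction without either PN14 replicate. From PN14 to PN28 edgeR's quasi-likelihood test called 0 of the 10, with Cited2 alone at an unadjusted p under 0.05, and 0.0178% of all genes were called. From PN28 to adult it called 0, with Egln1 and Hif3a at an unadjusted p under 0.05, against 0.521% of all genes. The Wald test of DESeq2 and the exact test of edgeR also called 0 in both spans.

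From PN2 to adult, a span that shares the PN2 library with the one before, the same 4 genes rose and Hif3a fell. Epas1 rose by 1.88 (SE 0.25, edgeR adjusted p = 0.00337), Vegfa by 1.60 (SE 0.246, edgeR adjusted p = 0.0046) and Mb by 5.56 (SE 0.972, edgeR adjusted p = 0.00668), and Hif3a fell by 3.49 (SE 0.218, edgeR adjusted p = 0.00189). Of all genes, 40.0% were called here, 19.1% rising and 20.9% falling. Nothing is read from the count of the 10 here either. With library size alone 2 of the 10 rose (Egln1 and Mb) and 3 fell (Hif1a, Hif3a and Vhl), and the rises of Epas1 and Vegfa came to 0.86 and 0.57. That scaling put the median of all genes at -1.07 here. Hif3a, Mb and, over this longer span, Egln1 thus held under both scalings, as the plot of fold changes by span shows.

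The other genes of the pathway were taken from 4 lists of 88 genes, 86 of them tested. From PN2 to PN14, 24 rose and 5 fell (33.7%, beside 23.0% of all genes), or 13 and 11 with library size alone. From PN2 to adult 30 rose and 10 fell (46.5%, beside 40.0%), or 15 and 28 with library size alone. The median of all genes under library size alone was -0.66 and -1.07 over these spans. No share of all genes called is given for that scaling. From PN14 to PN28 edgeR's quasi-likelihood test called 0, with 5 at an unadjusted p under 0.05 and 0 by the Wald test of DESeq2 or the exact test of edgeR. From PN28 to adult Vldlr rose and Plod2 fell (2.33%, beside 0.521% of all genes), and with library size alone 2 rose and 8 fell. Over this last span the Wald test of DESeq2 called 7 of the HIF target genes and 3 of the globin and heme genes. The share of all genes called by that test is not given. The lists were chosen with earlier results of these data known, so nothing is read from their counts, here or list by list below.

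Among 11 partners of oxygen sensing, 3 rose from PN2 to PN14 (Cited4, Egln2 and Tceb1), where 11.8% of all genes rose. There 1 fell (Arnt2), where 11.2% of all genes fell, and 7 did not pass, with a median log2 difference of 0.55. With library size alone 1 rose, 2 fell and the median was -0.11, and Egln2 (0.47) and Tceb1 (0.39) were no longer called. Cited4, a relative of Cited2 that also binds p300 and CBP, had 3.94 FPKM at PN2 and 20.29 and 20.72 at PN14 and rose by 3.04 (SE 0.223, edgeR adjusted p = 0.00301). Arnt2, a close relative of Arnt typical of neurons, had 3.77 FPKM at PN2 and 0.75 and 1.20 at PN14 and fell by 1.32 (SE 0.245, edgeR adjusted p = 0.0145). Egln2, which encodes PHD1, went from 36.76 to 51.03 and 50.79 FPKM, and Tceb1, the elongin C of the VHL ligase, from 38.83 to 48.24 and 53.70. Hif1an, the asparaginyl hydroxylase that blocks HIF transactivation, had 67.05 FPKM at PN2 and 42.20 and 37.70 at PN14, a log2 difference of -0.08 (SE 0.309, edgeR adjusted p = 0.867). By the adult 6 of the 11 had risen and 1 had fallen, beside 19.1 and 20.9% of all genes. With library size alone 1 of the 11 had risen and 1 had fallen. Cul2, the scaffold of the VHL ligase, was among the 6 at 1.22 (SE 0.224, edgeR adjusted p = 0.00784). Its level was 12.54 FPKM at PN2 and 14.31 in adult muscle, and at library size alone the difference was 0.19 and not called.

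Of 50 tested HIF target genes other than Vegfa, 17 rose from PN2 to PN14 and 2 fell, beside 11.8 and 11.2% of all genes. The other 31 did not pass, and the median was 0.66 (12 rose and 6 fell with library size alone, median 0.01). Bhlhe41, a repressor of the circadian clock, went from 0.99 FPKM at PN2 to 6.26 and 5.44 at PN14 and rose by 3.23 (SE 0.28, edgeR adjusted p = 0.00366). Tfrc, the transferrin receptor, went from 34.33 to 113.40 and 171.12 FPKM and had 30.07 in adult muscle. On the TMM scale its log2 difference from PN2 to the adult was 0.83 (SE 0.367, edgeR adjusted p = 0.107) and did not pass. The glycolytic Pgk1 went from 311.72 to 1018.80 and 1059.60 FPKM, and Pfkfb4, a regulator of glycolysis, from 6.56 at PN2 to 24.14 at PN28. The genes that fell were Plod2 and Lox, which modify and cross-link collagen. Plod2 went from 15.67 FPKM at PN2 to 2.34 and 3.42 at PN14 and to 0.46 in adult muscle. Gapdh and Aldoa, the most abundant genes of the list that did not pass, had log2 differences of 1.81 (SE 1.03) and 2.59 (SE 1.18). By the adult 19 had risen and 6 had fallen, beside 19.1 and 20.9% of all genes, or 12 and 15 with library size alone. Pfkfb3, which drives glycolysis, had gone from 2.87 FPKM at PN2 to 106.73 with 18.14 at PN28.

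Among 9 VEGF ligands and receptors, Vegfb and Flt1 rose from PN2 to PN14 and Pgf, placental growth factor, fell, beside 11.8 and 11.2% of all genes. With library size alone 0 of the 9 rose and 1 fell (Vegfb at 0.92 and Flt1 at 0.50). Vegfb, a ligand of Flt1, had 28.10 FPKM at PN2 and 50.14 and 56.69 at PN14 and rose by 1.58 (SE 0.19, edgeR adjusted p = 0.00585), near the 1.68 of Vegfa. Kdr and Nrp1, a VEGF coreceptor, had log2 differences of 0.72 and 0.29 and did not pass. By the adult 2 had risen and 2 had fallen, Nrp2 among the latter, beside 19.1 and 20.9% of all genes, or 1 and 5 with library size alone. Among 16 tested globins and heme synthesis genes, Alas1, the first enzyme of heme synthesis outside erythroid cells, and Fech, the last, rose from PN2 to PN14. Hbb-y, an embryonic globin, fell. Of all genes 11.8% rose and 11.2% fell over this span. With library size alone 0 of the 16 rose and 2 fell. Hbb-y was low throughout, with 1.41 FPKM at E18.5, 0.17 at PN2 and 0.00 in all later libraries. Alas1 went from 29.86 to 62.34 and 53.08 FPKM (log2 1.63, SE 0.292, edgeR adjusted p = 0.0132) and Fech from 19.64 to 29.84 and 22.24 (log2 1.09, SE 0.323, edgeR adjusted p = 0.0495), neither called with library size alone. Cygb, the globin found in many tissues, was at or under 12.23 FPKM in all 6 libraries, and Ngb, neuroglobin, was at or under 0.09. The haemoglobin genes Hba-a1 and Hbb-b1 had log2 differences of 0.79 (SE 0.542) and 0.90 (SE 0.523) and did not pass.

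The step around birth, for which the 10 genes were selected on these libraries, was concentrated in 2 of them. On log2 of normalized CPM plus 0.1, Hif3a differed by -2.89 from E18.5 to PN2 and Mb by 2.06, which is 4.16-fold higher. The other 8 lay between -0.48 for Egln1 and 0.44 for Epas1: Egln3 was at -0.43, Vegfa at -0.35, Vhl at -0.29, Hif1a at -0.16, Arnt at 0.04 and Cited2 at 0.08. Thus 2 of the 10 were at least 2-fold apart, where 3.44% of 13189 genes were, and nothing is read from this count because the step chose the genes. Egln1, Egln3, Vegfa and Vhl had lower values at PN2 than at E18.5, each by less than 2-fold, while the other hydroxylase genes Egln2 and Hif1an, outside the 10, were at 0.06 and 0.56.

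The HIF target genes, which are none of the 10, were examined at the same step, and most were under 2-fold apart. Their median log2 difference from E18.5 to PN2 was -0.50, beside -0.01 over all genes, and 9 of the 50 with at least 1 CPM were at least 2-fold lower at PN2 while none was 2-fold higher. Over all genes 1.51% were at least 2-fold lower. The list, like the 10 genes, was chosen with earlier results of these data known, so these values describe it and are no independent check. The 9, named after their values were seen, were Slc2a1, Pfkl, Pgam1, Ddit4, Car12, Ankrd37, P4ha1, Ndufa4l2 and Ak4. Slc2a1, the glucose transporter GLUT1, went from 22.21 FPKM at E18.5 to 4.38 at PN2, and had from 3.99 to 5.99 later. On the TMM scale Slc2a1 rose by 1.48 from PN2 to the adult (SE 0.216, edgeR adjusted p = 0.00411). Pfkl, the liver form of phosphofructokinase, had 34.83 and 10.06 and then between 2.71 and 5.41, and Pgam1, the non-muscle phosphoglycerate mutase, had 166.08 and 57.06 and then between 11.58 and 30.53. Ndufa4l2, an inhibitor of respiratory complex I, had 45.25 and 12.26 FPKM and rose to 16.13 and 19.16 at PN14. P4ha1, a collagen prolyl hydroxylase subunit, had 44.05 and 17.03.

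With 1 library on each side, edgeR's quasi-likelihood test called 0 of the 50 from E18.5 to PN2, with 18 at an unadjusted p under 0.05, and it called 0.0296% of all genes. DESeq2's Wald test called 7, edgeR's exact test 8 and the quasi-likelihood test with library size alone 7. No share of all genes called is given for these alternatives, so nothing is read from their counts. Erythroid markers had a median of -1.57 and bone and cartilage markers of -0.94 over the same step, macrophage markers of -0.43, myofibre markers of 0.24 and endothelial markers of 0.02. The summed FPKM of the 8 macrophage markers was 125 at E18.5, 97.5 at PN2 and from 40 to 66.2 later. The part of these cells in the target genes was not tested.

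**Figure D5:**
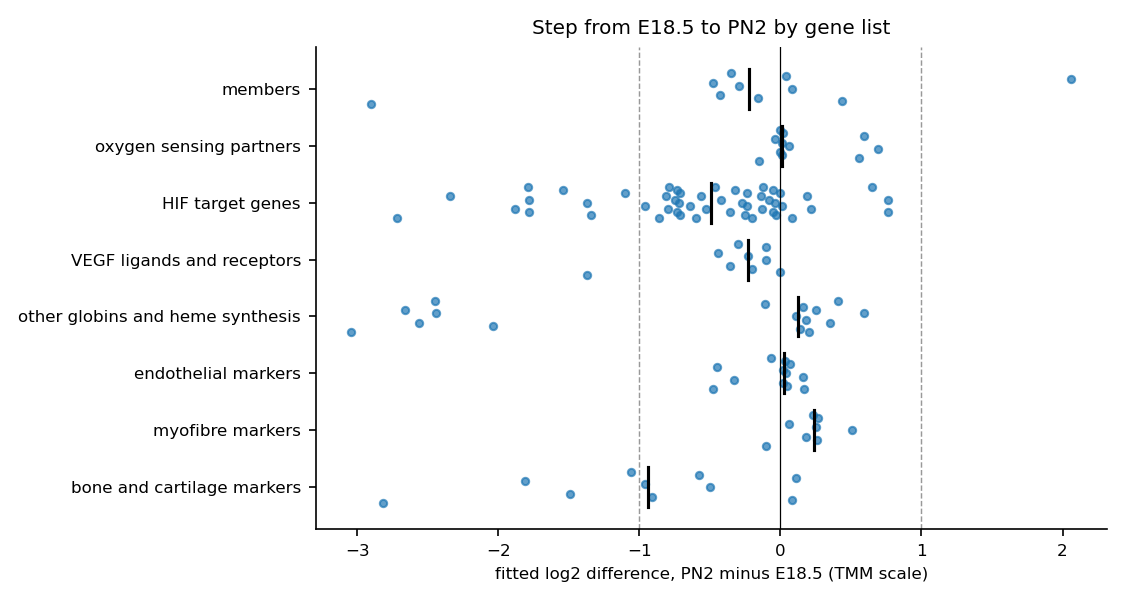
Fitted log2 difference from E18.5 to PN2 on the TMM scale (horizontal axis) of each tested gene in 8 lists (vertical axis), with a black bar at each median and dashed lines at 2-fold. The HIF target genes have a median of -0.50 with no gene past 2-fold on the right, and among the 10 genes ("members") only Hif3a and Mb pass the lines. The counts in the text add 0.1 CPM, which draws genes of low level towards 0, so a few more points lie past the left line here.

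The genes most like Hif3a, Mb and Vegfa over the 6 libraries were found by Pearson's correlation of log2 CPM among 10550 genes, with TMM scaling, as a description over 6 points that share stages and depth. For Hif3a they included Dcp2 (r = 0.998), 5430417L22Rik (0.997), Bmyc (0.994) and Rbbp7 (0.993). None of these 4 had a range like that of Hif3a: Dcp2, an mRNA decapping enzyme, went from 6.98 FPKM at E18.5 to 1.79 in adult muscle. For Mb they were Dus1l, Myadml2, Rnf181, Psmc5 and Tmem63b, each with a higher r than the genes above. None of these had a range like that of Mb: Psmc5 lay between 90.70 and 126.04 FPKM. For Vegfa they were Cisd3 (0.998), Trmt10c (0.998), Alkbh7, Ubald2 and Pih1d1 (each 0.997). Trmt10c had 11.90 FPKM at PN2 and 10.97 and 13.39 at PN14, without the rise of Vegfa in FPKM. Cisd3, which encodes an iron-sulphur protein of mitochondria, had 12.61 FPKM at PN2 and 30.69 and 35.32 at PN14.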

How the data were processed

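The authors aligned paired-end reads to mm9 with TopHat 2.0.5, used RSEM to count fragments per RefSeq gene, and deposited an expected count and an FPKM value for each gene and library. The expected counts are not normalized, and the FPKM values are scaled to gene length and library only. The version of RSEM and the strand setting are not given in the sources used here. The counts were rounded and fitted in R 4.3.3 with edgeR 4.0.16: TMM, filterByExpr by stage (16882 genes), 1 quasi-likelihood fit over all 6 libraries with 5 stages, and Benjamini-Hochberg adjustment over all genes tested. Calls needed an adjusted p under 0.05 and a 2-fold change. The fit had 1 residual degree of freedom, a common coefficient of biological variation of 0.188 and 4.86 prior degrees of freedom. It was tested on simulated data first. Untested 2-fold counts used log2(CPM + 0.1) where either library had 1 CPM. Alternatives were library size alone, DESeq2 1.42.0 (size factors, Wald test), the exact test, no filter, a mean of 1 CPM, a pseudocount of 1 and leaving out either PN14 replicate. Pathway genes named in the text were up to 4 called genes with the largest change and the 2 most abundant genes not called, per list and span, and the 5 most correlated genes for Hif3a, Mb and Vegfa. An item that this rule selects is not reported here. Other genes were named after their values were seen. The 10 genes and the lists were chosen with earlier results of these data known. Pkm2 was read as Pkm, and Ahsp was not matched. Positions came from GENCODE M1, promoters from RefSeq (GRCm38.p6), matched to mm9 by sequence with Python 3.11.15.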

Additional observations from a re-analysis of the deposited data

How the results depend on the processing

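Library size alone, which shifts the median of all genes, reversed the sign of 7 small differences, none of which passed in either form: Arnt at -0.54 (PN2 to PN14), -0.15 (PN14 to PN28) and -0.61 (PN2 to adult), Egln3 at -0.44 from PN2 to adult, Vegfa at -0.11 from PN28 to adult, and Cited2 at -0.07 (PN2 to PN14) and -0.34 (PN2 to adult). It also took away 3 calls, with Egln1 at 0.96 (PN2 to PN14) and Epas1 at 0.86 and Vegfa at 0.57 (PN2 to adult), and added 4, with Hif1a at -1.23 and -1.95 and Vhl at -1.02 and -1.66 over these spans. Under DESeq2's size factors, DESeq2's Wald test, edgeR's exact test, no filter and a mean of at least 1 CPM, the same 5 genes were called from PN2 to PN14 as well as over the span to adult. Leaving out either PN14 replicate put Mb between 4.06 and 5.57 and Cited2 between 0.12 and 0.88 from PN2 to PN14. No paired analysis was possible because only PN14 has replicates. With 1 library at each other stage, differences that involve them measure those libraries as much as the stages.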
